A study of Drosophila melanogaster with 2 samples.

Results

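Intergenic Pita peaks are deposited binding summits of the chromatin protein Pita that lie outside every annotated gene. They also lie more than 500 bp from every annotated transcription start site (TSS). There were 274 of them among the 1338 summits of the deposited list thresholded by irreproducible discovery rate (IDR), placed on Ensembl release 115 gene models with transposable elements left out. The list retained 5.33% of the 5137 intergenic summits among 30000 pooled candidates, and 4.46% of candidates of all kinds. Chromatin immunoprecipitation with sequencing was done on Drosophila melanogaster embryos of a single transgenic line, in which Pita carries GFP at its C-terminal end. The 2 libraries, biological replicates 1 and 3, form 1 group of whole embryos of mixed sex collected at 0 to 24 h, so every stage and cell type of embryogenesis is averaged. The description in the labels names an anti-GFP antibody and the antibody field names pita, and chromatin was sonicated to a range of 200 to 800 bp. The labels say no more of where the replicates came from, and a control experiment that they name was not analysed here. The design holds no contrast between treatments, and the comparisons below set intergenic peaks against promoter peaks, gene-body peaks and weaker intergenic candidates of the same experiment.

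Pita is a DNA-binding protein with a row of zinc fingers and a ZAD domain, through which such proteins pair. It belongs to the architectural or insulator proteins, which bring CP190 to chromatin and mark borders between chromosomal domains, and it is best known for binding boundaries of the bithorax complex, where they keep the enhancers of neighbouring Hox domains apart. CTCF, BEAF-32 and Su(Hw) are other insulator proteins of the fly, each with its own DNA sequence. Of the 274 intergenic summits, 39 lay within 300 bp of a stronger summit and are called shoulder summits. The remaining 235 are the intergenic peaks of all values below, set against 629 promoter peaks and 216 gene-body peaks chosen in the same way. A further 4268 intergenic candidates, over 300 bp from any IDR summit, served as weaker intergenic regions. They were deposited as peaks and background together, so they include background. Their signal reached at most 143.7, and that of the IDR summits was at least 143.9. Every comparison with these candidates therefore crosses a cutoff in signal.

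The sequence found at many Pita peaks was described by a weight matrix, whose width was set to 19 bp beforehand. It was learned on promoter and gene-body peaks alone, so that intergenic peaks took no part in it. In the first of the 2 training sets, position 4 was A in 94.7% and positions 18 and 19 were C in 98.8% and 97.1%, with G and C at positions 5 and 6 in 79.5% and 82.5% and G at position 10 in 75.4%. A peak counts as having the Pita sequence when a match lies within 50 bp of its summit. The sites of strong intergenic peaks are shown because they let the shared and the free positions be read side by side; capitals mark the 19 bp match, lower case its 5 neighbouring bases on each side, and each is written 5′ to 3′ on the strand of the match. Coordinates are on dm6, with sequence from the RefSeq copy of that assembly.
beside CG6465, chr3R:10675327-10675355, plus strand: ctaaaCATAGTAGTGACGCGCACCaaata
beside fz2, chr3L:19140530-19140558, minus strand: agtacGAAACCCAATATCAGAACCcgaag
beside Diap1, chr3L:16037319-16037347, plus strand: aatatCATAGCCAGTACTTGAACCaattg
beside Gnf1, chr3R:4905961-4905989, minus strand: ttgttTTTAGCGAAGGCACCCTCCtgata
beside CG42680, chr2L:14589091-14589119, minus strand: gttggTGTAGACAATACACCAACCatcgt
beside tara, chr3R:16260550-16260578, minus strand: ctttgTGTAGCAGAGACCCGAACCtagag
between CG15550 and CG15548, chr3R:30946552-30946580, minus strand: ctactCATATCGGAGTTCCCATCCcagta
between Glut3 and abd-A, chr3R:16798647-16798675, plus strand: caaagTCGAGCAGGTACCCGAACCatgtc
beside ct, chrX:7679032-7679060, minus strand: ctcgaTTTAGCGAGTACACACCCCtagat
beside Atet, chr2L:4345935-4345963, minus strand: aaattGTTAGCATTGCCACGACCCcttcg
between CG9483 and CG42713, chr2L:8888985-8889013, minus strand: tagaaATTAGTGGATGTTCAAACCaattt
between Wnt4 and wg, chr2L:7281636-7281664, plus strand: ttgtgATTAGCCAAGAACTGCACCaattc

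Strong intergenic peaks without a match show what the matrix leaves out. Below are the 101 bp around the summits of 3 such peaks, on the plus strand. The first holds, in capitals, the CTCF core, which here means the letters AGGTGGCG or AGATGGCG on either strand, and the others hold none of the patterns for Pita or CTCF.
beside Jhbp1, chr3R:4970913-4971013: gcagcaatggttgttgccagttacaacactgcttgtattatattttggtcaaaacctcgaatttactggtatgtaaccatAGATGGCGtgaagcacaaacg
between fuss and toy, chr4:979971-980071: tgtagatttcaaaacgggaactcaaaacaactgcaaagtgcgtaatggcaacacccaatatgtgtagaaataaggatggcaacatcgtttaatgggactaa
beside ATPsynD, chr3R:19096404-19096504: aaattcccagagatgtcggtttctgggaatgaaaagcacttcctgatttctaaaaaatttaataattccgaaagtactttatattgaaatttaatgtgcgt

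The strongest intergenic peak had its summit at 3R 10675320, 240 bp from the gene edge of CG6465, with hth, a homeodomain partner of the Hox proteins, as the coding gene on the other side. Its signal, the authors' own value per peak, was 4112 in the IDR list, 1900 in replicate 1 and 2236 in replicate 3. The peak at 3L 19140516 followed with a signal of 3829, 459 bp beyond the 3′ end of fz2, a Wnt receptor. At 2R 25183164, between Ebp and CG9380, the signal was 3790, and at 3L 16037355, between CG5895 and the apoptosis inhibitor Diap1, it was 3287. The peak at 4 980021 lay 1532 bp upstream of fuss and 9704 bp from toy, a Pax6 homologue of eye development, with a signal of 3043. These 5 peaks ranked between 7 and 28 in the whole list.

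Among the 10 that followed in signal, the peak at 3R 4970963 beside Jhbp1, a juvenile hormone-binding protein, had a signal of 2883 and the peak at 3R 4905997 beside Gnf1, a clamp-loader subunit of DNA replication, had 2707. Signals of 2643, 2557 and 2425 belonged to the peaks at 2L 14589066 beside CG42680, at 3R 16260592 between the trithorax-group gene tara and bor, and at 3R 30946548 between CG15550 and CG15548. The peak at 3L 21484091, between the forkhead gene croc and Neu2, had 2300. The remaining 4 were at 3R 16798624 between Glut3 and the Hox gene abd-A (2068), 3R 19096454 beside ATPsynD, a subunit of mitochondrial ATP synthase (2046), X 7679042 beside the homeobox gene ct (2024) and 2L 4345945 beside Atet (2023). The peak beside ATPsynD lay 507 bp from the TSS of CG6040, just outside the limit of 500 bp. Of the 15 strongest, 10 held the Pita sequence, the ct peak held the CTCF core as well, and the Jhbp1 peak held the core alone. The peaks beside CG9380, fuss, Neu2 and ATPsynD held neither. In 8 of the 15, the summit lay within 500 bp of the 3′ end of a bordering gene.

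Over the 235 intergenic peaks the signal had a minimum of 145, quartiles of 263, 464 and 1014, and a maximum of 4112. Promoter peaks had a median of 837, gene-body peaks 366 and the other intergenic candidates 33.0. The share of peaks above the median signal of the IDR list, 491, was 48.9% of intergenic peaks (115 of 235, 95% exact Clopper-Pearson interval 42.4 to 55.5) and 67.4% of promoter peaks (424 of 629, 63.6 to 71.1). Intergenic peaks were thus weaker, with an odds ratio of 0.463 (Fisher's exact test, Benjamini-Hochberg adjusted p = 3.28e-06 over 11 tests against promoter peaks). All tests were two-sided. Against gene-body peaks, of which 37.0% (80 of 216, 30.6 to 43.9) lay above, the difference did not pass (exact test, odds ratio 1.63, adjusted p = 0.0599 over 9 tests). It passed with shoulder summits included and with promoters limited to 200 bp, as given in the closing part. Peaks of one list are no replicates of a condition, so these p-values describe the list, the intervals cover counting alone, and read depth is unknown because the lists hold no read counts.

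**Figure D1:**
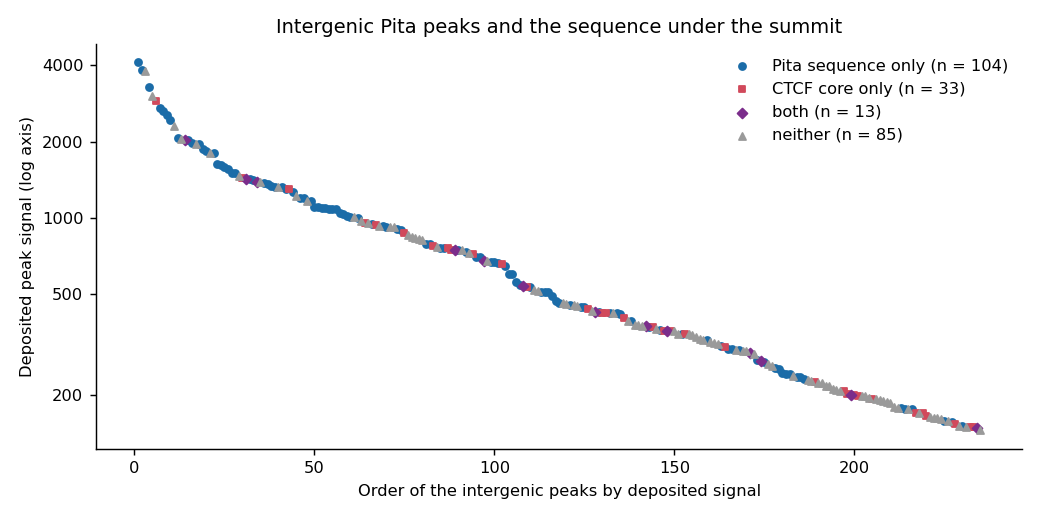
Deposited signal of the 235 intergenic peaks on a log axis, in order from the strongest to the weakest, with the marker giving the sequence within 50 bp of the summit. Peaks with the Pita sequence alone fill most of the strong end, and at the weak end peaks with neither sequence are the most frequent.

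The Pita sequence lay within 50 bp of 117 of the 235 intergenic summits, or 49.8% (95% exact interval 43.2 to 56.4), where all IDR peaks together gave 63.7%. In windows of the same length centred 1000 bp to the left of the same summits, 10 held it (4.26%). It was in the summit window alone at 112 peaks and in the flank alone at 5 (exact McNemar test, p = 2.11e-27). The sequence was present at 71.7% of promoter peaks (451 of 629, 68.0 to 75.2), an odds ratio of 0.391 for intergenic against promoter peaks (Fisher's exact test, adjusted p = 1.72e-08). Gene-body peaks held it at 55.6% (120 of 216, 48.7 to 62.3), and the odds ratio of 0.793 did not pass (exact test, adjusted p = 0.463). Of the other intergenic candidates, 6.07% held it (259 of 4268, 5.37 to 6.83), close to the 5% of training flanks that the threshold lets through, and the odds ratio was 15.3 (exact test, adjusted p = 1.46e-67 over 14 tests). The matrix was learned on promoter and gene-body peaks, so it can favour sites of these classes over intergenic ones. How far this lowers the intergenic share beside theirs was not tested.

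The letters of the CTCF core were chosen with earlier results on these peaks known, so its p-values are no independent support. The core showed another order. It was present at 19.6% of intergenic peaks (46 of 235, 95% exact interval 14.7 to 25.2), 4.29% of promoter peaks (27 of 629, 2.85 to 6.18), 16.2% of gene-body peaks (35 of 216, 11.6 to 21.8) and 0.797% of the other intergenic candidates (34 of 4268, 0.552 to 1.11). Against promoter peaks the odds ratio stood at 5.43 (Fisher's exact test, adjusted p = 2.14e-10) and against the other candidates at 30.3 (exact test, adjusted p = 8.31e-39). Against gene-body peaks it was 1.26 and did not pass (exact test, adjusted p = 0.586). The CTCF core thus had its lowest share of the 3 classes of IDR peaks at promoters, where the Pita sequence had its highest.

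**Figure D2:**
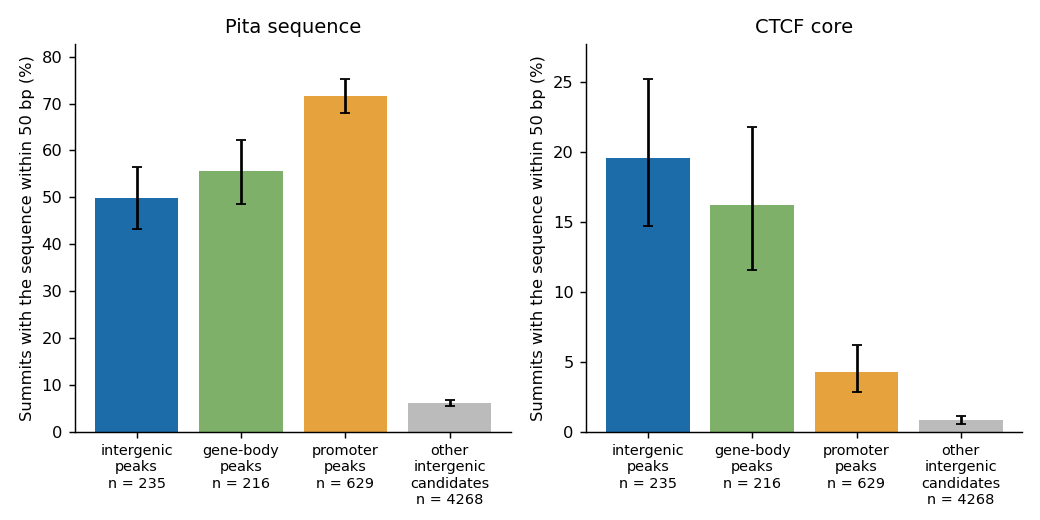
Share of summits with the Pita sequence (left) and the CTCF core (right) within 50 bp, for intergenic peaks, gene-body peaks, promoter peaks and other intergenic candidates; bars start at 0 and error bars are 95% exact intervals. The Pita sequence stands at 49.8% of intergenic and 71.7% of promoter peaks, and the CTCF core at 19.6% and 4.29%.

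Within the intergenic peaks the sequences mostly lay apart. There were 104 peaks with the Pita sequence alone, 13 with both, 33 with the CTCF core alone and 85 with neither (36.2%). The CTCF core was present in 11.1% of the 117 peaks with the Pita sequence and in 28.0% of the 118 without it (Fisher's exact test, odds ratio 0.322, adjusted p = 0.0016 over 3 classes). Gene-body peaks gave 7.50% and 27.1% (exact test, odds ratio 0.218, adjusted p = 2.20e-04), and promoter peaks 9 of 451 and 10.1% of 178 (exact test, odds ratio 0.181, adjusted p = 7.64e-05). This comparison was chosen after the data were seen.

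Signal went with the Pita sequence among intergenic peaks. The median signal was 764 at peaks with the Pita sequence alone, 427 at those with both, 371 at those with the CTCF core alone and 345 at those with neither. With and without the Pita sequence, the medians were 348 and 149 in replicate 1 and 381 and 195 in replicate 3. In 4 bins of signal of near-equal size, the share with the Pita sequence was 27.1% in the lowest, then 40.7%, 55.2% and 76.3% in the highest. The CTCF core was at 23.7%, 23.7%, 20.7% and 10.2% over the same bins. Of the 117 intergenic peaks above the median signal of the class, 65.8% held the Pita sequence, against 33.9% of the 118 at or below it (Fisher's exact test, odds ratio 3.75, adjusted p = 1.80e-06 over 3 tests added after the data were seen). For the CTCF core the shares were 15.4% and 23.7%, which did not pass (exact test, odds ratio 0.584, adjusted p = 0.139). Even so, the peaks at 2R 25183164 and 4 980021, ranked 11 and 28, held neither sequence.

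Matches were searched only within 50 bp of the summits, so their nearness is set in part by the window. Their positions were not tested against an even spread over it. The centre of the Pita match had a median distance of -1 bp from the summit on the plus strand, with quartiles of -19 and 13 bp, and 71 of 117 lay within 20 bp (60.7%). For the CTCF core the median was -8 bp, with quartiles of -24.2 and 24.8 bp, and 18 of 46 lay within 20 bp (39.1%).

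**Figure D3:**
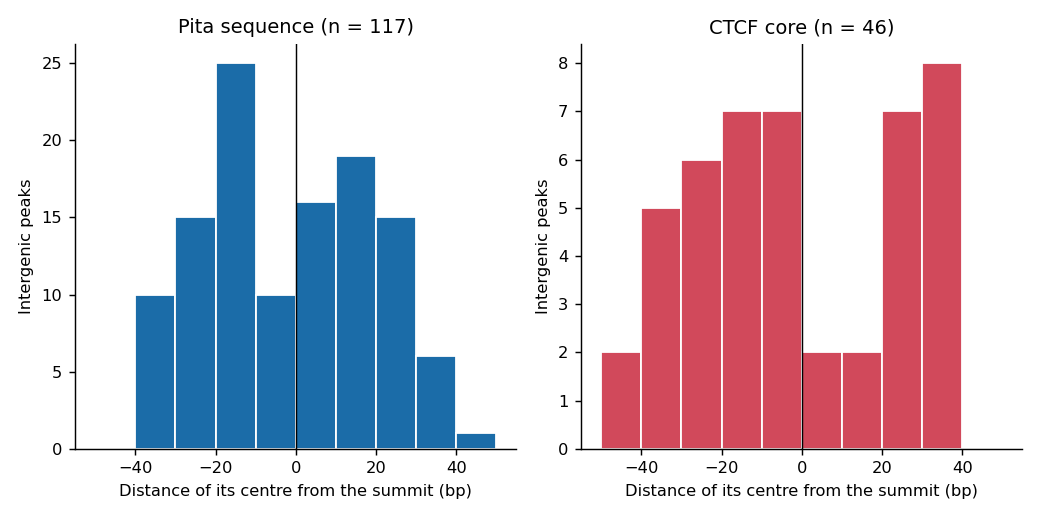
Distance of the centre of the Pita match (left) and of the CTCF core (right) from the summit, in bp on the plus strand, counted in bins of 10 bp over the intergenic peaks that hold each. Pita matches lie on both sides of the summit with 71 of 117 within 20 bp, and CTCF cores have 18 of 46 within that distance.

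Letters of 6 other DNA-binding proteins were searched on both strands within 50 bp of the summits. BEAF-32, an insulator protein found mostly at promoters, is represented by CGATA, which also lies inside TATCGATA, the letters of the promoter factor DREF. CGATA was present at 18.7% of intergenic peaks (44 of 235) and 26.1% of promoter peaks (Fisher's exact test, odds ratio 0.653, adjusted p = 0.0350), a difference that did not pass with promoters taken to 1000 bp or above the median signal. It was at 9.26% of gene-body peaks (exact test, odds ratio 2.26, adjusted p = 0.0399) and at 10.1% of the other candidates (exact test, odds ratio 2.05, adjusted p = 3.18e-04). The difference from gene-body peaks did not pass in either replicate alone (exact test, adjusted p = 0.0915 without replicate 1 and 0.259 without replicate 3). Nor did it pass above the median signal (exact test, adjusted p = 0.402). TATCGATA was at 1 intergenic peak (0.426%) and 30 promoter peaks (4.77%; exact test, odds ratio 0.0853, adjusted p = 0.00218). GGTCACACT, the letters of the promoter factor M1BP, was at 0 of 235 intergenic peaks, which allows a share of up to 1.28%, at 0 of 216 gene-body peaks and at 2.86% of promoter peaks (18 of 629; exact test, adjusted p = 0.00857). Differences for TATCGATA and GGTCACACT from promoter peaks did not pass with promoters taken to 1000 bp (exact test, adjusted p = 0.0668 and 0.106) or above the median signal (adjusted p = 0.0974 and 0.188).

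TGCATACTT, letters of the insulator protein Su(Hw), was present at 8 intergenic peaks (3.40%), 4 promoter peaks (0.636%) and 22 other candidates (0.515%). Against promoter peaks the odds ratio came to 5.51 (Fisher's exact test, adjusted p = 0.00854) and against the other candidates to 6.80 (exact test, adjusted p = 3.18e-04). Above the median signal neither difference passed (exact test, adjusted p = 0.0974 and 0.0932). In that setting the other candidates also held intergenic IDR peaks at or below the median. Gene-body peaks held TGCATACTT at 3 of 216 (1.39%), which did not pass (exact test, odds ratio 2.50, adjusted p = 0.463). The 8 peaks had a median distance of 8702 bp to the nearest TSS, against 1666 bp for the 227 intergenic peaks without these letters, and 4 of the 8 also held the Pita sequence. The letters of the GAGA factor, GAGAGAG, and of Zelda, CAGGTAG, were at 1 intergenic peak each, with 6 and 1 promoter peaks (exact test, adjusted p = 0.681 and 0.517).

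A count of all 8-letter words, which needs no known factor, was made between the summit windows of the intergenic peaks and their left flanks. Of 358 words seen often enough to test, 28 (7.82%) were more frequent at the summits and 4 in the flanks (exact McNemar test, adjusted p under 0.05). The word of lowest p was AGATGGCG of the CTCF core, counted in the same summit windows as above, at 30 summits and 2 flanks (exact test, adjusted p = 8.82e-05). GATGGCGC, which overlaps it, was at 24 and 2 (exact test, adjusted p = 0.00125). ATTTTACA was at 24 summits and 2 flanks (exact test, adjusted p = 0.00125) and ATGTAAAA, whose opposite strand overlaps it, at 20 and 1 (adjusted p = 0.00188). CACAAACC, which is close to the end of the Pita sequence, was at 13 summits and 0 flanks (exact test, adjusted p = 0.0109), and 11 of the 13 peaks held the Pita match. AAGTATGC, which overlaps the opposite strand of the Su(Hw) letters, was at 12 and 0 (exact test, adjusted p = 0.0143).

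AAGCAGTG was at 15 intergenic summits and 0 flanks (exact McNemar test, adjusted p = 0.00364), and 4 of the 15 peaks held the Pita match. Laid on positions 3 to 10 of the matrix it has the most frequent base at 4 of 8 positions, where CACAAACC has it at 8 of 8 on positions 12 to 19. It was present at 6.38% of intergenic peaks, 6.94% of gene-body peaks, 2.23% of promoter peaks and 0.375% of the other candidates, shares that were not tested, and its opposite strand CACTGCTT can be read in the window beside Jhbp1 printed above. Among the 118 intergenic peaks without the Pita sequence, AAGCAGTG was at 11 summits and 0 flanks (exact test, adjusted p = 0.00928) and AGATGGCG at 20 and 0 (adjusted p = 1.09e-04). These words were picked after their values were seen. The base composition differed beside them: the summit windows of intergenic peaks had a median GC content of 38.6% (SD 6.74), those of gene-body peaks 42.6%, and those of promoter peaks and of the other candidates 41.6%, and the part of base composition in the counts of words was not tested.

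Intergenic peaks lay nearer to genes than the other intergenic candidates did. The median distance to the nearest TSS was 1677 bp (quartiles 919 and 4870) against 3424 bp, with both groups over 500 bp by the way they were chosen. Within 2000 bp of a TSS were 53.6% of intergenic peaks (126 of 235, 95% exact interval 47.0 to 60.1) and 32.1% of the other candidates (1372 of 4268, 30.7 to 33.6), an odds ratio of 2.44 (Fisher's exact test, adjusted p = 2.37e-10). The Pita share among intergenic peaks was 53.7% up to 1000 bp from a TSS (67 peaks), 50.8% from there to 2000 bp (59 peaks), 26 of 52 peaks from there to 5000 bp and 43.9% beyond 5000 bp (57 peaks). The CTCF core stood at 17.9%, 15.3%, 32.7% and 14.0% over the same distances.

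**Figure D4:**
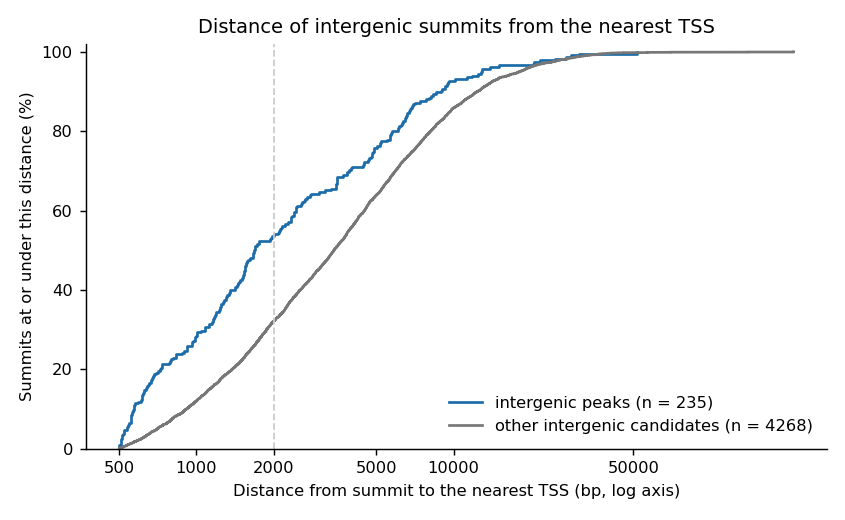
Cumulative share of summits by distance to the nearest TSS in bp, on a log axis, for the 235 intergenic peaks and the 4268 other intergenic candidates; the dashed line is at 2000 bp. At that distance the curve of the intergenic peaks stands at 53.6% and that of the other candidates at 32.1%.

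Many intergenic peaks lay just beyond the 3′ end of a gene. Summits within 500 bp of a TSS were left out of both groups, so a gene edge nearer than that can only be a 3′ end, and 3′ and 5′ ends were not tested against each other. The nearest edge of a gene was a median 571 bp from an intergenic peak and 2303 bp from the other candidates. The 3′ end of a bordering gene lay within 500 bp of 41.7% of intergenic peaks (98 of 235, 35.3 to 48.3) and 10.9% of the other candidates (464 of 4263, 9.96 to 11.9; exact test, odds ratio 5.86, adjusted p = 7.99e-31 over 3 tests added after the data were seen). Intergenic peaks also lay in shorter intervals, with a median of 6242 bp against 12109 bp. In intervals over 5000 bp the shares were 21.6% (27 of 125) and 4.25% (141 of 3315), and in shorter ones 64.5% (71 of 110) and 34.1% (323 of 948), so the difference was seen in both. Where no 3′ end lay within 500 bp, the nearest edge was a 3′ end for 42.3% of intergenic peaks (58 of 137) and 46.7% of the other candidates (1776 of 3799). A 3′ end lay within 500 bp of 40.2% of intergenic peaks with the Pita sequence, 43.2% of those without it and 41.3% of those with the CTCF core.

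In the orientation of the genes on either side, intergenic peaks did not differ from the other candidates beyond the test. Both neighbours pointed away from 20.9% of intergenic peaks and 24.1% of the candidates (Fisher's exact test, adjusted p = 0.545), both pointed towards 25.1% and 25.0% (exact test, adjusted p = 1), and 54.0% and 50.7% lay between genes in tandem (exact test, adjusted p = 0.586). With protein-coding genes alone the first and the last passed, as given in the closing part. With promoters limited to 200 bp, convergent neighbours turned to fewer, at 16.2% of intergenic peaks and 23.3% of the candidates (exact test, adjusted p = 0.00313). Repeat-masked sequence held the summit of 8.09% of intergenic peaks (19 of 235) and 15.4% of the other candidates, 658 of 4268 (exact test, odds ratio 0.483, adjusted p = 0.00321). The difference did not pass above the median signal (exact test, adjusted p = 0.0691), where the candidates also held intergenic IDR peaks at or below that median. Annotated transposable elements held 3 intergenic peaks (1.28%) and 2.46% of the candidates (exact test, adjusted p = 0.586).

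Hox genes, which set segment identity along the body, bordered intergenic peaks in 6 of 8 cases, where 3.03% of all protein-coding genes (424 of 13986) did. Long gaps between genes of the Hox complexes can hold more peaks, and no test was made. In the Antennapedia complex the peak at 3R 6706523 lay 1277 bp from pb with a signal of 1017. Those at 3R 6780256 and 3R 6806851 flanked Dfd at 11580 and 4423 bp, with signals of 1360 and 1379. Between Scr and Antp, peaks at 3R 6854452 and 3R 6871012 had signals of 1083 and 1341 and lay on either side of the pair-rule gene ftz. All 5 held the Pita sequence and none the CTCF core.

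In the bithorax complex a single intergenic peak, at 3R 16798624, lay between Glut3 and abd-A, 8590 bp from abd-A and 1976 bp from the TSS of lncRNA:CR45750. Its signal was 2068 in the IDR list, 964 in replicate 1 and 1076 in replicate 3, it held the Pita sequence printed above, and a shoulder summit of signal 366 lay 230 bp to its right. Just outside the complex, the peak at 3R 16656290 lay 333 bp beyond the 3′ end of Ubx and 628 bp from the TSS of modSP, with a signal of 1389. It held neither the Pita sequence nor the CTCF core, and it held CGATA.

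Other listed genes bordered intergenic peaks in smaller shares, where 3.03% of all protein-coding genes (424 of 13986) did. Long gaps between genes can hold more peaks here as well, and no test was made of these lists. Of 36 genes of segmentation and axis patterning 5 bordered an intergenic peak (13.9%): ftz, hry, kni, sog and wg. The peak between Wnt4 and wg, which encodes the ligand Wingless, lay 25517 bp from wg, with a signal of 1955 and the Pita sequence. Those bordering kni (463), sog (378) and hry (298) lay 16276, 8574 and 23675 bp from these genes and held neither sequence. Of 18 homeobox genes of nerve and sense organ development 6 bordered an intergenic peak (33.3%). The peaks lay 9704 bp from toy (signal 3043), 25870 bp from ap (1271) and 3282 bp from otp (1222). Those of Rx (970), ey (518) and unc-4 (148) lay at 1254, 831 and 11637 bp. Only the peaks bordering ap and unc-4 held the Pita sequence. Polycomb and Trithorax group genes gave 1 of 27 (3.70%), near the share of all genes. That peak, of signal 1327, lay 35433 bp from Su(z)2. None of 17 genes for insulator and architectural proteins bordered an intergenic peak. Of 88 genes for cytoplasmic ribosomal proteins 2 did (2.27%), also near the share of all genes. These were RpL17 and RpS27, where the peaks lay 238 and 337 bp from the genes with signals of 1501 and 1556, both with the Pita sequence.

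By chromosome arm, the intergenic peaks numbered 39 on X, 42 on 2L, 37 on 2R, 53 on 3L, 57 on 3R, 7 on 4 and 0 on Y. The density was between 1.46 per Mb on 2R and 1.89 per Mb on 3L among the large arms, and 5.19 per Mb on the small arm 4, where 7 of 12 peaks were intergenic (58.3%), 2 of the 7 held the Pita sequence and none the CTCF core. The X held 16.6% of intergenic peaks and 20.5% of promoter peaks, which did not pass (Fisher's exact test, odds ratio 0.771, adjusted p = 0.257); it passed with shoulder summits included (-5.95 percentage points, exact test, adjusted p = 0.0414) and with promoters limited to 200 bp (-7.94 points, adjusted p = 0.00762), where the value above is -3.91 points.

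The IDR list was made from these same replicates, and its lowest signal, 143.9, lay above that of all other intergenic candidates. The likeness of the replicates is thus in part set by how the peaks were chosen and is given as a description. A candidate summit lay within 100 bp of 232 of the 235 in replicate 1 and of 233 in replicate 3, and of 230 in both (97.9%). Across these 230, log2 signals had a Pearson's r of 0.967 and a Spearman's rho of 0.964, as a description across peaks that share their libraries. Signal had a median of 219 in replicate 1 (41.0 to 1900) and 266 in replicate 3 (65.2 to 2236), and 214 peaks were among the 1338 strongest candidates of both. The median gap in rank was 58.5 places, with 88 at gene-body peaks and 39 at promoter peaks.

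**Figure D5:**
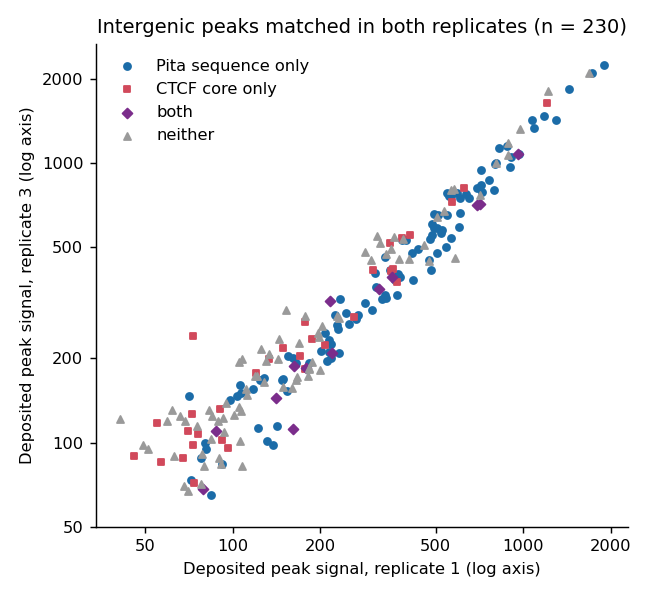
Deposited signal of the 230 intergenic peaks matched in both replicates, replicate 1 across and replicate 3 up, both on log axes, with the marker giving the sequence at the summit. The points follow a single band (Pearson's r of log2 signal 0.967) that widens towards low signal.

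Of the 235 intergenic peaks, 5 had no summit within 100 bp in a replicate. Replicate 1 lacked those at 3L 10698343, 3L 6995140 and X 17230053, with signals of 728, 677 and 195 in the IDR list, and replicate 3 lacked those at 3L 5869774 and 3L 13228042, with 657 and 211. Among the 230 matched in both, the 5 that differed most in rank were weak. At 3R 7092172, beside alphaTub84B, the signal was 41.0 in replicate 1 (rank 1709) and 122 in replicate 3 (rank 1119). At 3R 29313277, beside Cnx99A, it was 72.8 (rank 1198) and 241 (rank 736), and this peak held the CTCF core. The peaks at 2L 15096939, 2L 833367 and 3L 5083469 went the other way, ranking 1116, 1001 and 904 in replicate 1 and 1517, 1350 and 1240 in replicate 3. All 5 had a signal between 157 and 402 in the IDR list, under the median of the class. Of the 5 weakest intergenic summits, with signals of 145 to 149, 2 were shoulder summits, and the unflagged ones lay at 3L 10285028, X 17790345 and 3R 7981627.

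The limit of 500 bp cut through a continuous range of distances. Just outside it were peaks at 3R 21520427, 501 bp from the TSS of sp3 with a signal of 1171, and 3L 15925363, 502 bp from that of sff with a signal of 304, and a shoulder summit at 3L 4840612, 504 bp from CG13707. Just inside were summits at 3R 28635596 and 3R 9329008, 497 bp from the TSSs of CG10011 and CG8861 with signals of 1274 and 156, and at 2L 21683616, 490 bp from that of nolo with a signal of 891. At the far end, the peak at 3R 3374323 lay 51513 bp from the TSS of spok, an enzyme gene of ecdysone synthesis, in an interval of 106864 bp, with a signal of 1104 and the Pita sequence. The peaks at 3L 15268203 and 3L 15264308 lay 30755 and 28689 bp from the nearest TSS in a single interval between the Toll-family gene Tollo and Best4, with signals of 934 and 232, and the weaker one held the Pita sequence.

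The 39 shoulder summits shared a side. Each lay to the right of its stronger summit, at a median of 204 bp, and that summit was intergenic for 36 and at a promoter for 3. The Pita sequence lay at 2 of the 39 (5.13%) and the CTCF core at 3, and their signal had a median of 317 (145 to 965). Shoulder summits made up 14.2% of the 274 intergenic summits and 22.6% of the 813 promoter summits (Fisher's exact test, odds ratio 0.567, adjusted p = 0.00544), a difference that did not pass with promoters taken to 1000 bp (adjusted p = 0.126) or above the median signal (adjusted p = 0.642), and that turned to 1.72 percentage points more in intergenic summits with promoters limited to 200 bp (adjusted p = 0.521). Beyond them, 6 pairs of intergenic peaks lay under 2000 bp apart. On arm 4, summits at 835087 and 835869 shared 1 deposited interval of 1489 bp between Sox102F and fd102C, with signals of 1084 and 1329. The pair at X 19325954 and X 19326937, beside out, had unequal signals of 165 and 1197.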

How the data were processed

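The authors deposited peak lists on dm6, with a signal per peak, an interval and a summit, for each replicate, for the pooled libraries and for the IDR list; the signal was used as deposited. The unit of the signal, the aligner, the caller and the cutoff on IDR: not given in the sources used here. Lists on dm3 were not used. Summits were placed with Ensembl 115 genes. The weight matrix was learned in 8 rounds from the 6-letter seed CAAACC on unflagged promoter and gene-body peaks in alternate blocks of 1 Mb and applied to the other blocks, with a threshold that 5% of training flanks exceed. Where the seed was placed in the matrix was chosen after another placing had been tried. Shares were compared with Fisher's exact test, and summits with flanks with an exact McNemar test, two-sided, with Benjamini-Hochberg adjustment within each family and a threshold of 0.05. Words of 8 letters were tested when the counts of summit windows and of flank windows that held them added up to at least 8. A share of 0 was given the limit of 3 counts. The peaks named are the 15 strongest, those of the bithorax complex, those nearest and farthest from a TSS, the weakest, those that differ most between replicates, close pairs, and those bordering listed genes. Members, gene lists and sequence patterns were chosen with earlier results of these data known. The tests were tried on simulated data with random sequence, unlike the genome, and the outcome is not given here, so the trial is no support for the results. Python 3.11.15, NumPy 2.4.6, pandas 2.3.3, SciPy 1.17.1 and Matplotlib 3.10.9 were used.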

Additional observations from a re-analysis of the deposited data

How the results depend on the processing

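Values for the Pita sequence, CTCF core, signal, shoulders, X, TSS distance, orientation and repeats were recomputed under other settings. Among them 125 kept their side of the threshold, 6 gained and 3 lost the threshold, and 2 counts moved. Another 2 turned their sign where the main or the other value passed. Of those for the letters of the other 6 proteins, 131 kept their side, 12 lost the threshold and 1 gained it. Values that kept their side could still change sign where neither passed. The CTCF core against gene-body peaks, for example, went from 3.37 to -1.85 points above the median signal. With shoulder summits included, the X difference from promoter peaks was -5.95 percentage points (exact test, adjusted p = 0.0414) and the signal difference from gene-body peaks 11.8 points (adjusted p = 0.0324). With promoters limited to 200 bp there were 462 intergenic summits, the shoulder difference was 1.72 points (exact test, adjusted p = 0.521), the X difference -7.94 (adjusted p = 0.00762), the signal difference from gene-body peaks 11.4 (adjusted p = 0.0251) and the difference in convergent neighbours -7.13 (adjusted p = 0.00313). At 1000 bp the shoulder difference was -5.61 (exact test, adjusted p = 0.126). With protein-coding genes alone, divergent neighbours differed by -6.44 points (exact test, adjusted p = 0.0390) and tandem ones by 7.55 (adjusted p = 0.0373). Above the median signal, 123 intergenic summits were left, with a shoulder difference of -1.92 (exact test, adjusted p = 0.642) and a repeat-masked difference of -7.40 (adjusted p = 0.0691). The last setting has fewer peaks, and its other candidates numbered 4388 because intergenic IDR peaks at or below the median joined them. What caused the other changes was not tested. The signal comparisons give no value above the median by construction. To leave out a replicate, the IDR list was replaced by the 1338 strongest candidates of the other replicate. The other intergenic candidates still came from the pooled libraries, which hold both replicates. Leaving out either replicate in this way changed no call but that of CGATA against gene-body peaks, which was lost (7.75 and 6.22 points, exact test, adjusted p = 0.0915 and 0.259). No paired analysis was possible because the 2 libraries form 1 group. Peak lists hold no read counts, so depth cannot be given, and the 5% of flanks above the threshold of the matrix sets the floor of its shares.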

Other observations

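The intergenic candidates just under the IDR list were looked at as values outside the comparisons. The intergenic IDR peaks held the Pita sequence at 49.8% and the CTCF core at 19.6%. The 235 strongest of the other intergenic candidates, with ranks from 1339 to 3489 and signals from 55.5 to 144, held the Pita sequence within 50 bp of 30 summits (12.8%) and in 14 of their left flanks (5.96%; exact McNemar test, two-sided, p = 0.0226, chosen after the data were seen). The CTCF core was at 11 of them (4.68%).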
